A study of Mus musculus with 55 samples.

Results

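Immediate-early genes are genes that a cell transcribes within minutes of a stimulus, without first making new protein. In pancreatic islets they are known to respond to glucose, to depolarisation and calcium entry, to cyclic AMP, to cytokines and to the handling of tissue. Most of them encode transcription factors: FOS and JUN family proteins pair to form AP-1, EGR proteins bind GC-rich sites through zinc fingers, and NR4A1 is an orphan nuclear receptor. They are known to be switched on through CREB at cyclic AMP response elements (CREs) and through serum response factor at CArG boxes.

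Here 10 such genes were followed out of 47937 genes counted: the AP-1 subunits Fos, Fosb, Jun, Junb and Atf3, the zinc finger factors Egr1 and Egr2, the nuclear receptor Nr4a1, and Ier2 and Dusp1. They were taken as a list of names, with earlier results of these data known, so their levels are given as a description. All 10 were found in the counts table and all 10 passed the filter on low counts.

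The data were bulk mRNA sequencing of whole islets from male C57B6/J mice at 8 and 25 weeks of age, in 16 libraries. βEedKO mice (labelled Eed -/-, here KO) carry floxed Eed alleles deleted by RIP-Cre, a rat insulin promoter transgene active in β cells, so that the Polycomb complex PRC2 loses its EED subunit there while the other islet cells keep it. They were set against wild-type (WT) and Eed heterozygous (HET) islets, for which the sources used here do not say whether Cre was present. Islets were released with collagenase, purified on a density gradient, picked by hand and cultured in 11 mM glucose for a time that was not stated. There were 3 WT (replicates 1, 3 and 4), 3 HET (1, 2 and 3) and 3 KO libraries (1, 4 and 5) at 8 weeks, and 3 WT (2, 3 and 4), 2 HET (1 and 2) and 2 KO libraries (2 and 3) at 25 weeks. Per the methods, a library held islets of 1 to 2 animals, but of at least 4 for each KO library at 25 weeks.

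Levels are given as CPM, read counts scaled to library size and by TMM, a factor that corrects for differences in RNA composition. Libraries held between 4645393 counts (WT at 25 weeks, replicate 2) and 22925359 counts. Eed was at 19.2 to 33.1 CPM in the 6 WT libraries and at 13.4 to 15.6 CPM in the 5 KO libraries, with no overlap, while HET libraries had 16.3 to 20.5 CPM. Summed over 8 β-cell markers, the level was 13864 and 17192 CPM in KO at 25 weeks against 122235 to 218342 CPM in WT. Acinar markers ran from 11850 to 386557 CPM, both extremes in KO libraries at 25 weeks. In bulk samples, fewer cells of a type and less RNA per cell cannot be told apart.

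The promoters of 8 members were matched to RefSeq windows, in 12 windows on GRCm38.p6. The set of windows used held none for Egr1 and Ier2, so their promoters were not searched. The stretch of 250 bases before each start was searched on both strands for known elements. The sequences of Fos, Nr4a1 and Dusp1 are shown because each holds several CRE half-sites (TGACG). The half-site, or its complement CGTCA, is in capitals, as is the whole palindrome TGACGTCA of Dusp1. They lie at chr12:85473640-85473889 (plus strand), chr15:101266596-101266845 (plus strand) and chr17:26508520-26508722 (minus strand, the 203 bases that lie outside annotated exons).
Fos: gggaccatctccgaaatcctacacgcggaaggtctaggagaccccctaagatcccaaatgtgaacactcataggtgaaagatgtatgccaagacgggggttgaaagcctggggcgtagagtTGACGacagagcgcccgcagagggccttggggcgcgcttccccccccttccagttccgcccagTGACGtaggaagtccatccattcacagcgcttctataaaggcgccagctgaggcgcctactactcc
Nr4a1: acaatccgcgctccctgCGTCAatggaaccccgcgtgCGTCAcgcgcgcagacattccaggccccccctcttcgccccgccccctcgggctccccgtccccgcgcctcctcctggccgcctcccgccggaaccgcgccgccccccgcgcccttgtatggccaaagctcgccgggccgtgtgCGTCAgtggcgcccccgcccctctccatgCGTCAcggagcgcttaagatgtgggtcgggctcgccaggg
Dusp1: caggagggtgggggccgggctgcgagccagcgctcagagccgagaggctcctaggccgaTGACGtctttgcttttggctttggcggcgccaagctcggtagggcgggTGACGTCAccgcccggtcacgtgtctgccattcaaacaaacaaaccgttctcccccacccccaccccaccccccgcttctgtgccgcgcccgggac

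The half-site TGACG was present upstream of 7 of the 8 members with a window, all but Jun, and in 17.8% of 32851 windows of all genes. Here and below a member counted if any of its windows matched, and Egr2 had several, while the shares are per single window. Nr4a1 had 4 matches and Fos 2. Dusp1 had 3, of which 2 overlap as the palindrome TGACGTCA, a sequence found in 1.55% of all windows. Within these windows CArG boxes were found only upstream of Egr2 among the 8 members, against 1.47% of all windows. They are printed with the box in capitals, at chr10:67537484-67537513 and chr10:67537787-67537816 on the plus strand.
Egr2 site 1: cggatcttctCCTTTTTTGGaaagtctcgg
Egr2 site 2: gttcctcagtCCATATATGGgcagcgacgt

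The TATA box TATAAA was present upstream of Fos alone among the 8, and in 12.4% of windows. The EGR site GCGNGGGCG was present upstream of Fosb and Nr4a1 and in 4.70% of windows. The AP-1 site TGANTCA was found upstream of 0 of the 8 members and in 6.75% of windows. These are matches of letters in short windows, and they carry no measure of binding.

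Fos encodes the founding partner of JUN in AP-1 (chr12:85473890-85477273). At 8 weeks its level was 1947, 55.4 and 60.3 CPM in WT replicates 1, 3 and 4, 2221, 1259 and 1400 CPM in HET replicates 1, 2 and 3, and 1883, 70.9 and 53.7 CPM in KO replicates 1, 4 and 5. At 25 weeks the level was 528, 3022 and 2125 CPM in WT replicates 2, 3 and 4, 2250.1 and 1683 CPM in HET replicates 1 and 2, and 717 and 166 CPM in KO replicates 2 and 3. Within WT and within KO at 8 weeks, replicate 1 stood far above the other 2 libraries, and the WT and KO ranges covered each other. At 25 weeks WT replicate 2 lay below both KO replicate 2 and every HET library.

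Fosb, a close relative of Fos with a more stable protein product (chr7:19302696-19310051), spread over a 67.5-fold range. It was at 1211, 62.0 and 83.8 CPM in WT, 3675, 2123 and 2595 CPM in HET, and 1295, 133 and 98.6 CPM in KO at 8 weeks. At 25 weeks it was at 198, 4186 and 3918 CPM in WT, 3804 and 3049 CPM in HET, and 182 and 340.0 CPM in KO. The 2 KO libraries at 25 weeks lay below both HET libraries and beside the low WT library.

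Jun, the DNA-binding partner of FOS proteins (chr4:95049034-95052222), was at 987, 150.5 and 152 CPM in WT, 1703, 925 and 1072 CPM in HET, and 729, 148 and 129 CPM in KO at 8 weeks. In 25-week islets it was at 199, 1849.9 and 1478 CPM in WT, 1352 and 1178 CPM in HET, and 316 and 170.4 CPM in KO. The same libraries were high and low as for Fos, over a 14.3-fold range. An antisense gene, Junos, shares 232 bases of exon with Jun, and the library kit does not mark strand, so reads there cannot be assigned.

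Junb, which dampens JUN activity at many sites (chr8:84974484-84978718), had a different order at 8 weeks. It was at 317, 155 and 173 CPM in WT, 966, 534 and 708 CPM in HET, and 264, 305 and 355.5 CPM in KO, so that KO replicate 1 was the lowest of its group and not the highest. At 25 weeks the level was at 76.5, 876.5 and 736 CPM in WT, 810.3 and 543 CPM in HET, and 320.5 and 249.7 CPM in KO. WT replicate 2 at 25 weeks was the lowest of all 16 libraries. Junb shares 173 bases of exon with Prdx2 on the other strand.

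Atf3, a stress-induced factor that pairs with JUN and often represses (chr1:191170296-191218039), had the widest range of the 10, 139.6-fold. It was at 94.4, 41.9 and 30.9 CPM in WT, 648, 297 and 319.8 CPM in HET, and 244, 65.2 and 64.2 CPM in KO at 8 weeks. At 25 weeks it was at 5.23, 539 and 729.8 CPM in WT, 466.5 and 366 CPM in HET, and 13.3 and 259.9 CPM in KO. Its lowest and its highest level were both in WT at 25 weeks, the lowest resting on 24 counts. KO at 25 weeks also split, with replicate 3 above replicate 2, the reverse of Fos.

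**Figure D1:**
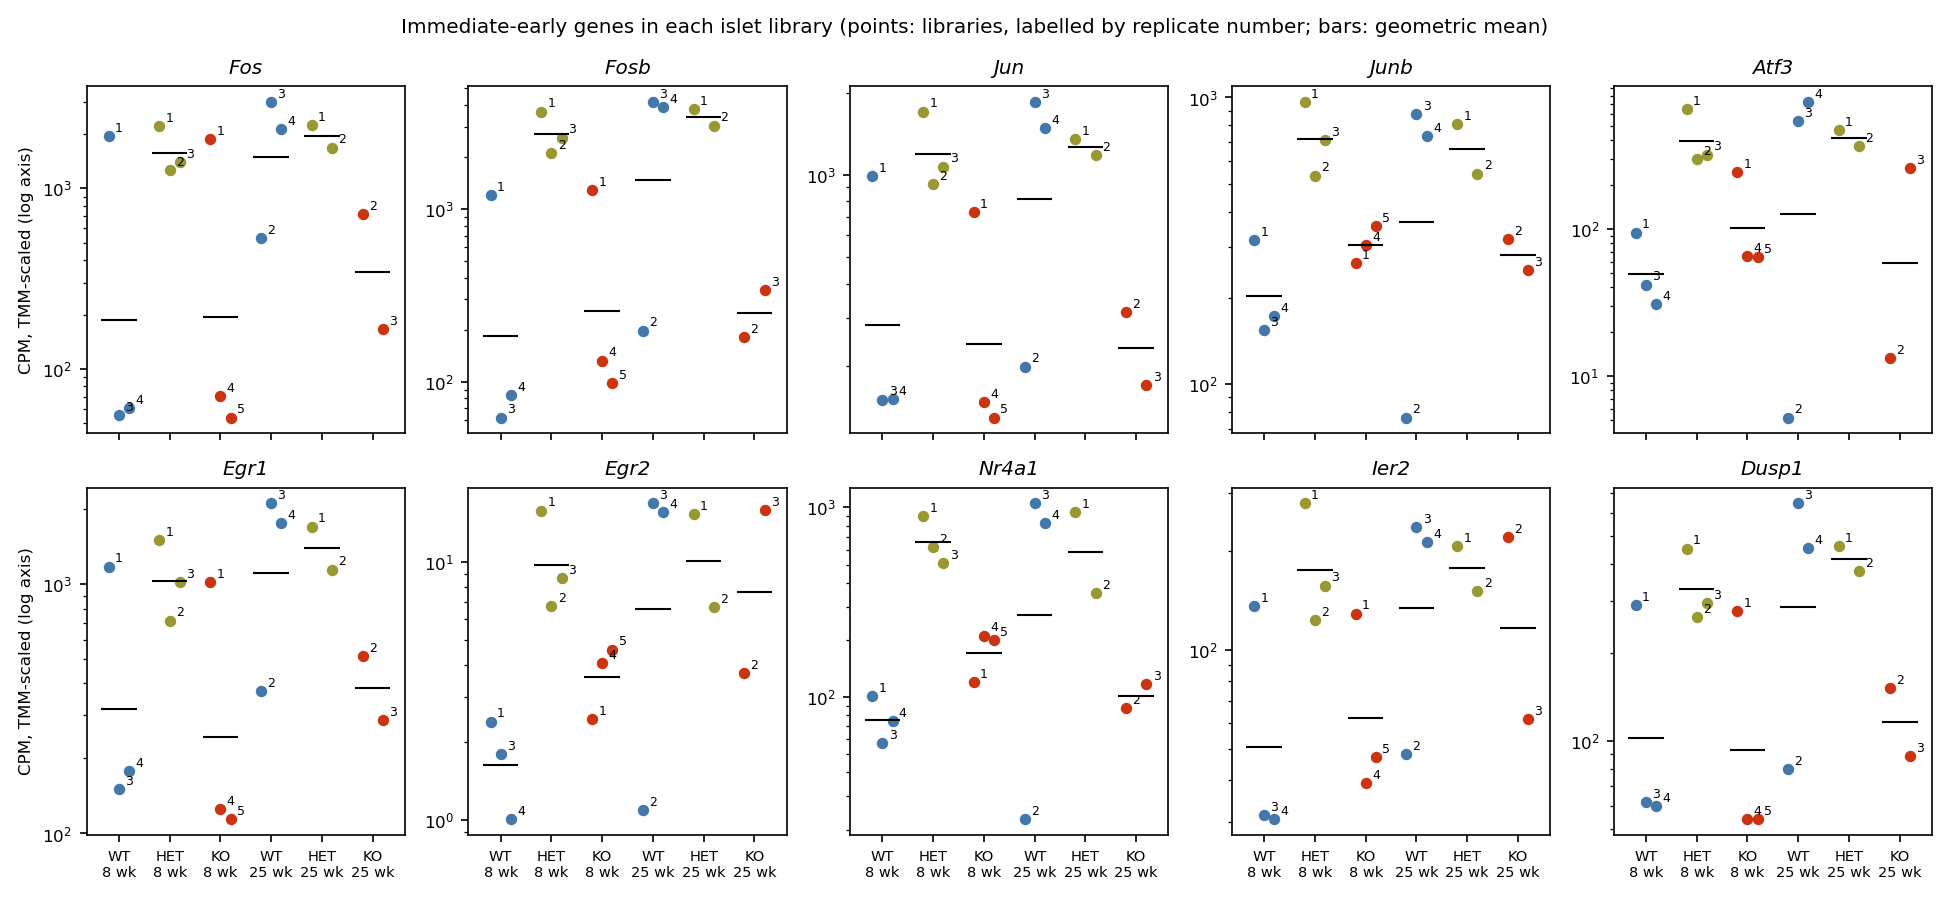
Levels of the 10 immediate-early genes in 16 islet libraries, as TMM-scaled CPM on a log axis of each gene's own range. Points are libraries labelled with their replicate number, bars are geometric means of WT (blue), HET (olive) and KO (red) groups at 8 and 25 weeks. WT and KO replicate 1 stand high at 8 weeks for Fos, Fosb, Jun, Egr1, Ier2 and Dusp1, and WT replicate 2 is the lowest of its group at 25 weeks for every gene.

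Egr1 encodes a zinc finger factor that rises quickly with glucose and calcium in β cells. It was at 1179, 150.2 and 178 CPM in WT, 1501, 715 and 1017 CPM in HET, and 1023, 125 and 114 CPM in KO at 8 weeks. In 25-week islets it was at 372, 2113 and 1756 CPM in WT, 1706 and 1147 CPM in HET, and 516 and 285 CPM in KO. Within each group its order of libraries was that of Fos.

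Egr2, a related factor best known in Schwann cells and hindbrain (chr10:67535475-67542188), was the member of lowest level, between 1.01 and 16.9 CPM, with as few as 5 counts in a library. It was at 2.41, 1.80 and 1.01 CPM in WT, 15.9, 6.78 and 8.67 CPM in HET, and 2.47, 4.06 and 4.58 CPM in KO at 8 weeks. At 25 weeks the level was at 1.09, 16.9 and 15.7 CPM in WT, 15.4 and 6.70 CPM in HET, and 3.73 and 15.9 CPM in KO. At 8 weeks every KO library lay above every WT library, although KO replicate 1 and WT replicate 1 were close.

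Nr4a1, the orphan receptor NUR77 (chr15:101254269-101274795), was at 101.5, 57.3 and 74.5 CPM in WT, 896, 616 and 508 CPM in HET, and 120.2, 211 and 199 CPM in KO at 8 weeks. At 25 weeks it was at 22.7, 1049.9 and 828 CPM in WT, 949 and 354 CPM in HET, and 87.8 and 117 CPM in KO. Replicate 1 did not stand apart in KO at 8 weeks, and the WT, KO and HET ranges lay in that order without overlap. At 25 weeks both KO libraries lay between the low WT library and the other WT libraries.

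Ier2, a small nuclear protein of the early response (chr8:84661331-84662852), was at 135, 31.3 and 30.5 CPM in WT, 278, 123 and 157 CPM in HET, and 129, 39.3 and 47.2 CPM in KO at 8 weeks. In 25-week islets it was at 48.2, 236 and 212 CPM in WT, 207 and 151 CPM in HET, and 220.2 and 61.6 CPM in KO. Unlike the AP-1 genes, its level in KO replicate 2 at 25 weeks was within the range of the high WT and HET libraries.

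Dusp1, the phosphatase that switches off MAP kinases after a stimulus (chr17:26505590-26562128), was at 289.7, 61.6 and 59.9 CPM in WT, 453, 265 and 296 CPM in HET, and 276, 53.9 and 54.0 CPM in KO at 8 weeks. At 25 weeks the level was at 79.7, 646 and 456 CPM in WT, 463 and 379 CPM in HET, and 151 and 88.8 CPM in KO. Its pattern was nearly that of Jun. It shares 11 bases of exon with Ergic1 on the other strand.

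Per kilobase of exon, the median level over the 16 libraries was highest for Fos, at 565 CPM per kb, followed by Jun at 259, Fosb at 201, Egr1 at 193, Junb at 147 and Atf3 at 117 CPM per kb. Ier2 had 86.8, Dusp1 81.7, Nr4a1 58.4 and Egr2 1.66 CPM per kb. Together the 10 genes took between 0.0705% (WT at 8 weeks, replicate 3) and 1.63% (WT at 25 weeks, replicate 3) of all counts, so both extremes were wild-type islets.

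Ordered by geometric mean, HET at 25 or at 8 weeks was the highest group for all 10 genes, and WT at 8 weeks was the lowest for all but Jun, Egr1 and Dusp1. Neighbours in that order overlapped in all but 3 cases, which were Egr1 between HET at 8 weeks and KO at 25 weeks, Egr2 between KO and WT at 8 weeks, and Nr4a1 between KO at 8 and KO at 25 weeks. Groups further apart in the order did separate for some genes, as given with the comparisons.

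Libraries of the same group differed widely in these genes. The SD of log2 CPM within groups was 2.13 for Atf3, 1.99 for Fos, 1.81 for Fosb, 1.46 for Nr4a1, 1.29 for Egr1, 1.26 for Jun, 1.20 for Egr2, 1.14 for Dusp1, 1.03 for Ier2 and 0.949 for Junb. The median over 11414 genes with a mean of at least 5 CPM was 0.332, and Atf3 ranked 114 in that order and Junb, the least variable member, 696.

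**Figure D2:**
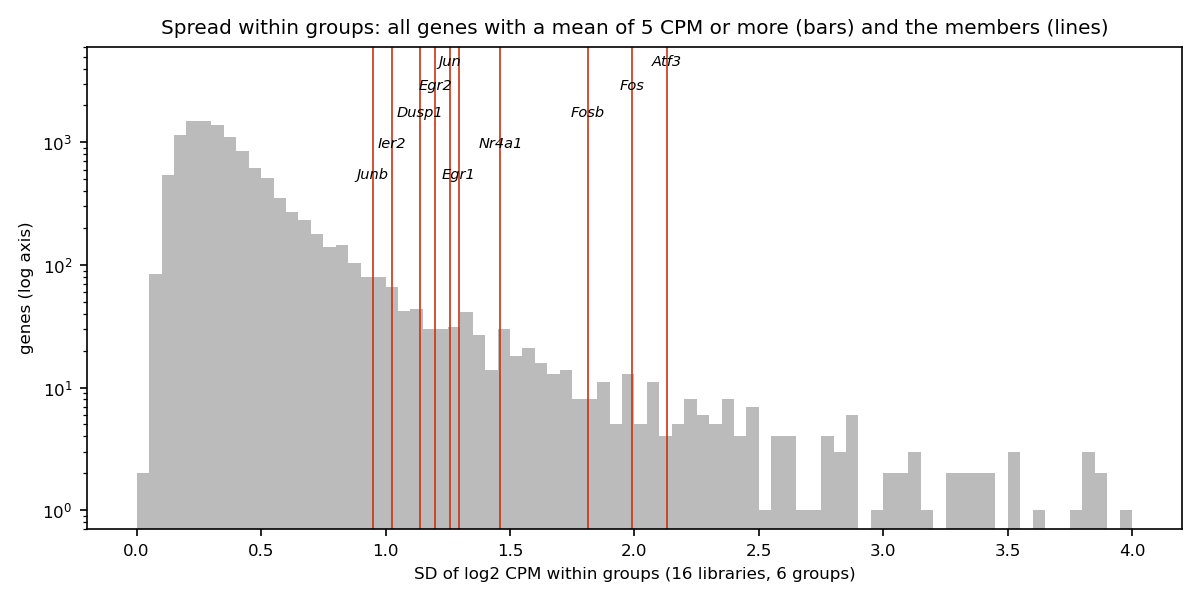
Spread within the 6 groups for all genes with a mean of at least 5 CPM. The x axis is the SD of log2 CPM within groups, grey bars count genes on a log axis, and each red line marks 1 of the 10 members, which run from 0.949 (Junb) to 2.13 (Atf3) where the median of all genes is 0.332.

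The spread was unequal between groups. The median SD over the 10 genes was 1.87 in WT at 25 weeks, 1.27 in WT and 1.23 in KO at 8 weeks, and 0.632 in KO at 25 weeks. Each KO library at 25 weeks pooled more animals than the others, and the part of this in the spread was not tested. HET islets were tighter, at 0.447 at 8 weeks and 0.308 at 25 weeks. All genes together had smaller SDs in another order, tightest in HET as well, with medians of 0.331 in WT and 0.354 in KO at 8 weeks, 0.165 and 0.105 in HET at 8 and 25 weeks, and 0.272 and 0.245 in WT and KO at 25 weeks.

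Some libraries moved as a whole. WT replicate 1 at 8 weeks was above the mean of its group for 10 of 10 genes, by a median of 1.46 on the log2 scale. KO replicate 1 at 8 weeks was above its group for 7 and below it for Junb, Egr2 and Nr4a1. WT replicate 2 at 25 weeks, the library with the fewest counts, was below its group for 10 of 10 genes, with a median deviation of -2.15. HET replicate 1 was above its group for 10 of 10 genes at both ages, by medians of 0.51 and 0.22.

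Other stress and signalling genes moved with these libraries, and their part in the result was not tested. The heat shock gene Hspa1a was at 360.6, 22.8 and 46.3 CPM in WT and 264.5, 20.5 and 22.3 CPM in KO at 8 weeks, highest in replicate 1 as Fos was. The sum over 8 heat shock genes did not share this, at 2575, 2790.35 and 3010.4 CPM in WT and 2137, 2378 and 2650.4 CPM in KO. The interferon-induced gene Ifit1 was lowest in replicate 1, at 6.78, 1357 and 1389 CPM in WT and 4.31, 1957 and 2197 CPM in KO. Summed over 8 interferon-induced genes the level was 43.2 to 54.5 CPM in HET at 8 weeks and 55.4 to 114 CPM at 25 weeks. In WT at 25 weeks this sum was alike in every library, at 60.5 to 67.1 CPM, while Fos was low only in WT replicate 2. For the heat shock sum that library had 1189.6 CPM, against 3972 and 3610.1 CPM in WT replicates 3 and 4.

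The 10 genes moved together to different degrees across the 16 libraries. With log2 CPM centred on the group means, Pearson's r was 0.996 between Jun and Dusp1, 0.969 between Fos and Egr1, and 0.952 between Jun and Ier2. It was 0.960 between Junb and Nr4a1, 0.900 between Egr2 and Nr4a1, and 0.884 between Atf3 and Egr2. The lowest values were 0.183 for Fos and Egr2 and 0.275 for Fos and Nr4a1. No clean split into sets was seen, since r was 0.791 for Fosb and Atf3, 0.731 for Jun and Junb, and 0.778 for Junb and Atf3. These are descriptions over 16 libraries that share depth, scaling and the WT replicate 2 library that was low in all 10 genes.

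Genes outside the list with the most similar pattern were sought among 11404 genes, by the correlation of their centred log2 CPM with the mean of the members over the 16 libraries. The first was Rhob, a small GTPase that is itself an early-response gene, with r = 0.992 and levels of 57.3 to 189 CPM. Next were Gm15344 (r = 0.979), a non-coding transcript annotated inside Hsp90b1 on the same strand and therefore uncertain in its counts, and Piga (r = 0.969), an enzyme of GPI anchor synthesis. The heat shock co-chaperone Dnajb1 had r = 0.956 and ranged from 31.2 to 873 CPM, and the phospholipase Plch1 had r = 0.954. Cry2, a repressor of the circadian clock (r = 0.950), Fgd1 (r = 0.950), Usp2 (r = 0.947), Zfp941 (r = 0.946) and Cbx8, a subunit of PRC1 (r = 0.944), completed the 10. Without WT replicate 2 at 25 weeks only Rhob was still among the first 10, and without centring on group means only Gm15344 and Piga were.

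**Figure D3:**
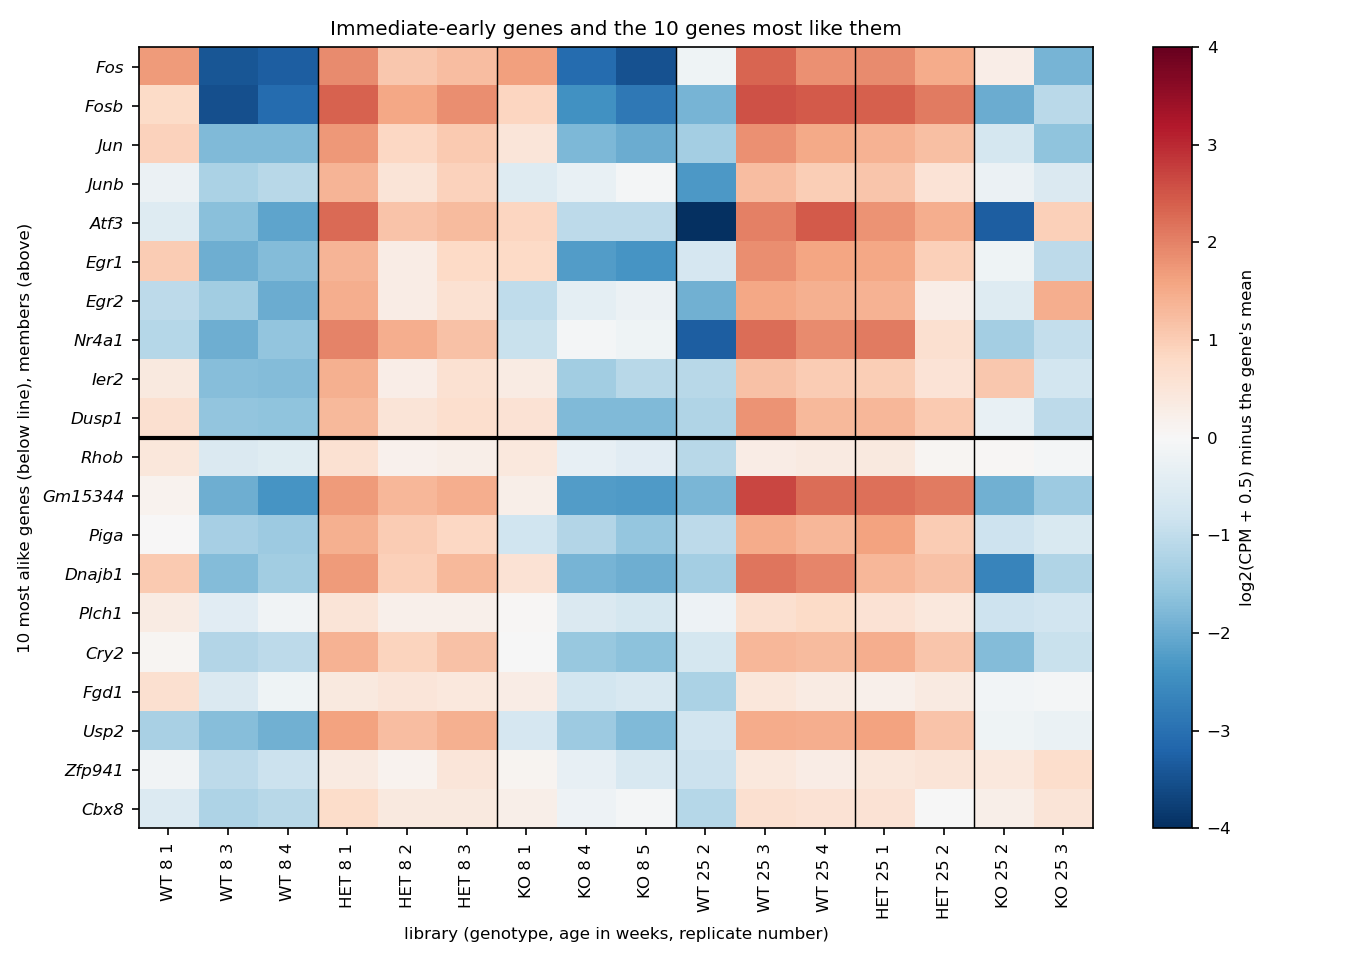
Log2(CPM + 0.5) of the 10 immediate-early genes (above the thick line) and of the 10 genes most like them (below), minus each gene's mean over 16 libraries, in colour from blue (lower) to red (higher). Columns are libraries by genotype, age in weeks and replicate. WT 25 2 is blue in nearly all rows, and WT 8 1 and KO 8 1 are red for Fos, Fosb, Jun, Egr1 and Dusp1 between paler or blue group-mates.

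Comparison of KO with WT at 8 weeks asks whether loss of EED had altered these genes in young islets. Fold changes are log2 from edgeR's quasi-likelihood fit, with SE. They were near 0 for Fos (-0.02 ± 1.53), Dusp1 (-0.09 ± 0.874), Ier2 (0.14 ± 0.773) and Fosb (0.19 ± 1.34), with 3 libraries per group. The largest were Nr4a1 (1.20 ± 0.879), Atf3 (1.16 ± 1.29) and Egr2 (1.10 ± 0.809). The median over the 10 genes was 0.16, with 6 higher and 4 lower, where that over all 18685 genes tested was 0.00. With edgeR, 0 of the 10 had an adjusted p under 0.05, where 0.434% of all genes did. At an unadjusted p under 0.05 there were 0 members, where 7.87% of all genes passed, and DESeq2 called 0, where it called 1.91% of the genes to which it gave an adjusted p.

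The groups did not overlap for 2 of the 10 genes, Egr2 and Nr4a1, both higher in KO, where 6.54% of all genes were higher without overlap. Same-numbered libraries gave a median KO minus WT difference of -0.06 on the log2 scale for replicate 1, with 4 genes higher, and of 0.51 for replicate 4, with 7 higher. The median rested on single libraries. It was 1.34, with 10 of 10 genes higher, without WT replicate 1, and -0.95, with 4 higher, without KO replicate 1. Without WT replicate 3 or 4 it was -0.26 or -0.27, with 4 higher. With both libraries numbered 1 left out, it was 0.57 with 7 higher. Scaled by library size only, the members' median was 0.48, and that of all genes moved to 0.20.

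At 25 weeks all 10 genes had a negative log2 fold change against WT. It was -3.47 ± 1.75 for Fosb, -2.69 ± 1.08 for Nr4a1, -2.32 ± 1.18 for Jun, -2.14 ± 1.87 for Fos, -1.87 ± 1.22 for Egr1, -1.77 ± 1.04 for Dusp1 and -1.71 ± 1.52 for Atf3, with 3 WT and 2 KO libraries. Junb had -1.03 ± 0.749, and Egr2 and Ier2 had -0.28 ± 0.870 and -0.28 ± 0.869. The median over the 10 was -1.82, where that over all genes was 0.03. Again 0 of 10 had an adjusted p under 0.05 by edgeR, where 6.6% of all genes did. At an unadjusted p under 0.05 there was 1, Nr4a1, where 20.3% of all genes passed, and DESeq2 called this member alone, with 10.3% of all genes.

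No member separated the groups at this age, where 15.9% of all genes were lower in KO without overlap and 24.7% higher. WT replicate 2 lay below the higher of the KO libraries for all 10. Pairs of the same number went opposite ways. KO minus WT was higher for 9 of 10 genes in replicate 2, with a median of 1.12 and with Fosb alone lower at -0.12, and lower for 10 of 10 in replicate 3, with a median of -2.88. With the replicate number as a block, the median was -0.91, with 7 genes lower and 3 higher (Egr2, Ier2 and Junb), and 0 of 10 were called, where 5.49% of all genes were. Without WT replicate 2 the median was -2.31, and Junb (-1.55) and Nr4a1 (-3.26) were called, where 6.09% of all genes were. Marker sums moved with genotype at this age, and their part in the result was not tested. Beside the lower β-cell sum, KO libraries had higher sums of 4 alpha-cell markers (11795 and 12436 CPM against 8217 to 9269 CPM in WT), of 5 duct markers (542 and 674 against 228 to 297 CPM) and of 8 mesenchymal markers (412 and 533 against 171 to 257 CPM), without overlap. Acinar, delta-cell, endothelial, macrophage and lymphocyte sums overlapped.

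The difference between both KO effects, 25 minus 8 weeks, was negative for 10 of 10 genes, from -0.42 ± 1.16 for Ier2 to -3.88 ± 1.38 for Nr4a1, with a median of -1.83. None was called by edgeR (0 of 10), where 0.198% of all genes were. Nr4a1 alone had an unadjusted p under 0.05, where 7.76% of all genes did, and DESeq2 called 0, with 1.98% of all genes. Without WT replicate 2 at 25 weeks, Nr4a1 was called at -4.45, where 0.189% of all genes were called. The median was -3.31 without WT replicate 1 at 8 weeks, -1.15 with 3 genes higher without KO replicate 1 at 8 weeks, and -1.08 with the replicate block.

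Between ages in wild-type islets, all 10 genes were higher at 25 weeks. The log2 fold change was 3.04 ± 0.936 for Nr4a1, 2.95 ± 1.37 for Atf3, 2.72 ± 0.838 for Egr2 and 2.66 ± 1.42 for Fosb, and between 1.36 and 1.56 for the other 6. The groups overlapped for all 10, where 7.08% of all genes were higher without overlap, and the median was 1.54. In this comparison edgeR called 0 of 10, and 0% of all genes. Egr2 and Nr4a1 had an unadjusted p under 0.05, where 10.2% of all genes did, and DESeq2 called Nr4a1, with 0.849% of all genes. The value again turned on single libraries, as the median was 3.05 without WT replicate 1 at 8 weeks and 2.01 without WT replicate 2 at 25 weeks, where Nr4a1 was called at 3.61 and 0.027% of all genes were called. This comparison, the KO comparisons and the HET comparisons share WT libraries and are not independent.

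Between ages in KO islets the direction was mixed, with 3 genes higher and 7 lower at 25 weeks. Egr2 had 1.35 ± 0.859, Ier2 0.94 ± 0.852, Fosb -0.99 ± 1.55 and Nr4a1 -0.84 ± 0.994 on the log2 scale, and the median was -0.14. One library turned this direction, as the median was 1.11 with 8 genes higher without KO replicate 1 at 8 weeks. Nr4a1 alone did not overlap, where 11.3% of all genes were lower without overlap. EdgeR called 0 of 10, where 1.5% of all genes were called. At an unadjusted p under 0.05 there were 0 members, where 14.1% of all genes passed, and DESeq2 called 0, with 5.21% of all genes.

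**Figure D4:**
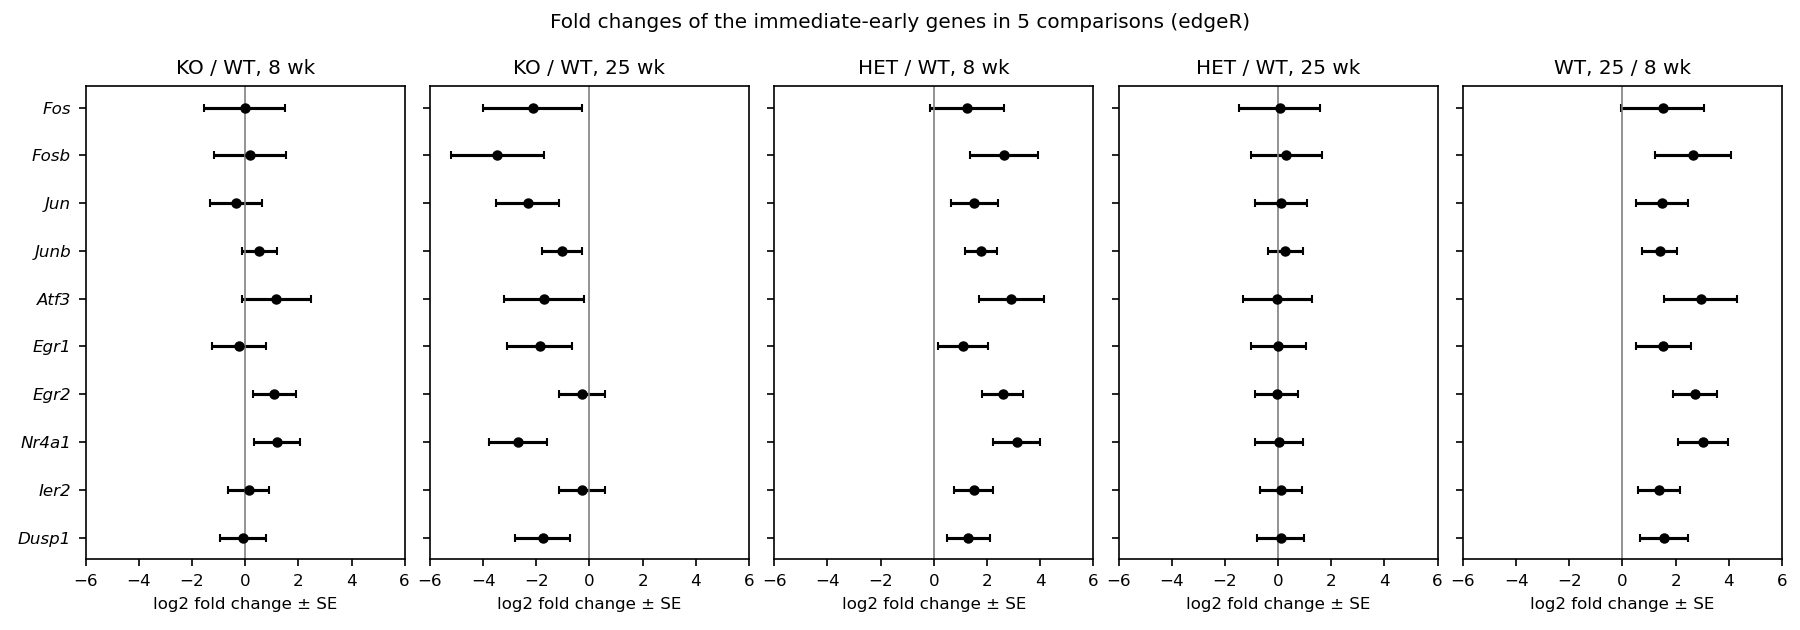
Log2 fold changes from edgeR for the 10 genes in 5 comparisons, points with 1 SE on each side, and a line at 0. KO against WT is spread around 0 at 8 weeks and lies below 0 at 25 weeks, HET against WT lies above 0 at 8 weeks and at 0 at 25 weeks, and WT at 25 against 8 weeks lies above 0.

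Heterozygous islets had the highest geometric means of these genes, although the highest single library was a WT library at 25 weeks for 8 of the 10, all but Junb and Ier2. Against WT at 8 weeks all 10 were higher, with log2 fold changes of 3.11 ± 0.873 for Nr4a1, 2.92 ± 1.24 for Atf3, 2.63 ± 1.28 for Fosb, 2.58 ± 0.785 for Egr2 and 1.78 ± 0.612 for Junb, and a median of 1.65. For these 5 the groups did not overlap, where 10.3% of all genes were higher without overlap. For Fos, Jun, Egr1, Ier2 and Dusp1, WT replicate 1 fell among the HET libraries. Of the 10, edgeR called 0, as it did 0% of all genes. There were 4 at an unadjusted p under 0.05, where 14.6% of all genes passed, and DESeq2 called Egr2 and Nr4a1, with 2.42% of all genes.

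Without WT replicate 1 the median was 2.90, and edgeR called 0 of 10, where 3.2% of all genes were called. All 10 had an unadjusted p under 0.05 in this setting. The share of all genes that passed it was not computed, so this count cannot be read as particular to the members. With KO replicate 1 left out as well, a setting chosen after seeing the data, 6 of the 10 were called by edgeR, where 16.7% of all genes were, among them Fos (4.83), Fosb (5.28) and Jun (3.05), with a median of 2.98. Within same-numbered pairs all 10 genes were higher in HET, by a median of 1.32 for replicate 1 and 2.80 for replicate 3.

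At 25 weeks the means of HET and WT lay close, with log2 fold changes between -0.05 ± 0.811 (Egr2) and 0.31 ± 1.34 (Fosb) and a median of 0.07. Here too edgeR called 0 of 10 and 0% of all genes, with 0 members at an unadjusted p under 0.05, where 1.12% of all genes passed, and 0 by DESeq2, with 0.00643% of all genes. SEs of 0.661 to 1.53 leave several-fold differences undetectable with 2 against 3 libraries. Without WT replicate 2 all 10 genes were lower in HET, with a median of -0.39, and without HET replicate 1 the median was -0.15. Without WT replicate 3 it was 0.58.

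KO islets had lower levels than HET for all 10 genes at both ages. At 8 weeks the median was -1.45 and 6 genes were lower without overlap (Fosb, Jun, Junb, Atf3, Egr2 and Nr4a1), where 14.5% of all genes were. At 25 weeks the median was -1.82, where all genes together had 0.09, and 8 genes were lower without overlap, all but Egr2 and Ier2, where 27.9% of all genes were. By edgeR 0 of 10 were called at either age, where 4.74% and 8.36% of all genes were. The spread in this fit was estimated over all groups, the widely spread WT libraries included. At an unadjusted p under 0.05 there were 1 and 2 members, where 25% and 24.3% of all genes passed, and DESeq2 called 0 at 8 weeks and Nr4a1 at 25 weeks, with 11.9% and 13.6% of all genes. Without KO replicate 1 at 8 weeks the median was -2.67 and 5 of 10 were called, where 21.7% of all genes were.

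A wider list of 42 early-response genes was read beside the members. In HET against WT at 8 weeks 34 were higher and 8 lower, with a median of 0.99, and 23 were higher without overlap, where 10.3% of all genes were. Among them were the activity-regulated gene Arc (22.7, 8.60 and 14.8 CPM in WT, 345.5, 81.5 and 130.1 CPM in HET), the neuronal factor Npas4 (30.4, 40.1 and 61.0 against 232, 136 and 162 CPM) and the clock gene Per1 (113, 38.4 and 56.5 against 463, 330 and 384 CPM). Lower without overlap were 3 of the 42, Dusp2, Rgs2 and Ctgf, where 9.09% of all genes were. Of these Rgs2, which limits G protein signalling, was at 205, 114 and 91.9 CPM in WT and 59.4, 69.2 and 33.0 CPM in HET. By edgeR 0 of 42 were called, with 14 at an unadjusted p under 0.05, where 14.6% of all genes passed, and DESeq2 called 6, with 2.42% of all genes.

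In KO against WT, 0 of the 42 were called by edgeR at 8 weeks, with 2 at an unadjusted p under 0.05 and 1 by DESeq2 (Egr4), where 7.87% and 1.91% of all genes passed. At 25 weeks it called 0, with 3 and 1 (Npas4), where 20.3% and 10.3% of all genes passed. The median at 8 weeks was 0.54, and between 0.28 (without KO replicate 4) and 0.93 (without KO replicate 1) when 1 library was left out. The median at 25 weeks was -0.26, but -1.32 without KO replicate 3, -0.61 without WT replicate 2, -0.02 without WT replicate 3, 0.06 scaled by library size only and 0.11 with the replicate block. With the replicate number as a block, 5 were called at 25 weeks, where 5.49% of all genes were. Nr4a3 (2.46), Dusp4 (2.20) and Myc (1.67) were higher in KO, and Dusp5 (-1.16) and Nfkbiz (-0.93) were lower. None of them was called without the block. The blocked fit had 2 residual degrees of freedom, and at this age only replicates 2 and 3 are in both genotypes. Nr4a3 had 2 counts in WT replicate 2. In WT at 25 against 8 weeks 0 of 42 were called by edgeR, with 11 at an unadjusted p under 0.05 and 2 by DESeq2 (Egr4 and Arc), where 10.2% and 0.849% of all genes passed. Rgs2 was called in KO against HET at 8 weeks, at 1.86 ± 0.469.

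Not all of these 42 followed the members. Klf2 had r = 0.932 and Egr4 r = 0.884 with the members' mean over the 16 libraries, but Fosl1 had 0.05 and Nr4a3 -0.04. Fosl1, an AP-1 subunit of later onset, was at 2.28, 13.1 and 13.2 CPM in WT and 2.23, 44.8 and 32.5 CPM in KO at 8 weeks, where replicate 1 was the lowest of each group. The chemokine gene Cxcl10 shared that order, at 1.71, 1004 and 1041 CPM in WT and 0.81, 1860 and 2278 CPM in KO.

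The chromatin state of these genes was read from a segmentation of wild-type islets, made of 24 states in 200-base bins over 19 autosomes. At the annotated start of the gene, 7 of the 10 were in state A, the active start site state, where 16.3% of all annotated genes and 36.2% of genes passing the count filter were. Dusp1 and Egr2 were in state L, bivalent with high H3K4me3, and Atf3 was in state N, Polycomb-repressed. For Atf3 and Dusp1 that position is the outermost annotated start, 34706 and 53656 bases before the start used by RefSeq, where both were in state A. By RefSeq starts 9 of 10 were in state A, and Egr2 varied between L, A and B over its 5 starts. The set of RefSeq windows used here held none for Egr1 and Ier2, and their annotated start was kept.

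Surroundings differed more than the starts. Within 5000 bases on either side, read at 101 points, bivalent or Polycomb states covered 89 points at Atf3 and 77 at Egr2, against 0 to 18 at the other 8. The active stretch, in unbroken states A to C, was 1100 bases long at Atf3 and at Egr2, and 3900 to 7900 bases at the others. Nr4a1 and Junb had 0 points in bivalent or Polycomb states. Among the 42 further genes 27 were in state A and 7 in state L at their annotated start.

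**Figure D5:**
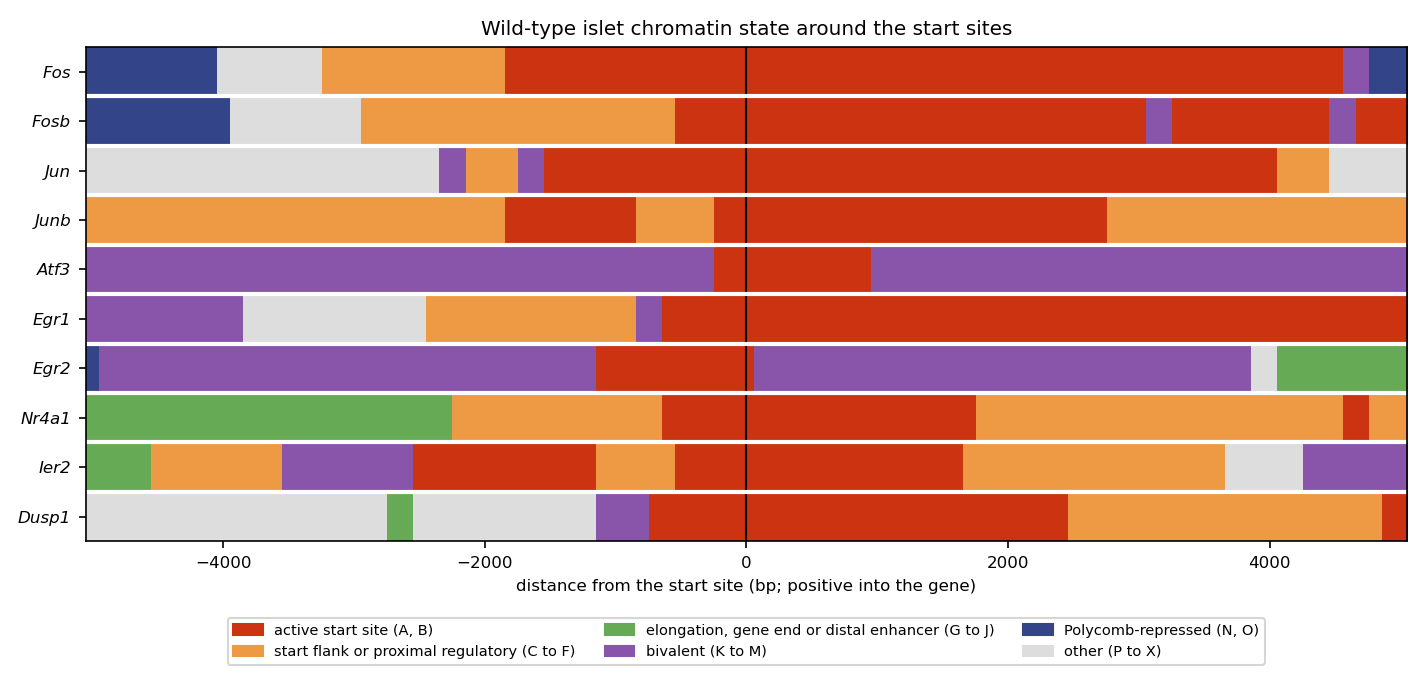
Chromatin states of wild-type islets around the start sites of the 10 genes, taken from the RefSeq windows used here, or from the annotated gene start for Egr1 and Ier2. The x axis is the distance from the start in bp, positive into the gene, and colours group the states as named in the legend. Atf3 and Egr2 have short active stretches inside bivalent chromatin, while the other 8 have broad active and start-flanking chromatin.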

How the data were processed

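The members and gene lists were chosen with earlier results of these data known. Per the labels and methods, the authors prepared libraries with a kit that does not mark strand, aligned reads to GRCm38 with TopHat2 2.0.13 and counted them per gene with featureCounts (Subread 1.5.0-p1) on Gencode M9, with a strand setting that is not stated, and deposited raw counts for 16 islet libraries. The deposited chromatin segmentation, from EpicSeg, gives 1 of 24 states per bin. Symbols came from GENCODE M21, which matched 47310 of 47937 genes. RefSeq promoter windows matched 8 of 10 members.

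edgeR 4.0.16 (R 4.3.3) was run on the counts with TMM scaling, filterByExpr, the quasi-likelihood test and Benjamini-Hochberg adjustment over all genes, called at an adjusted p of 0.05. KO and WT comparisons used 11 libraries (18685 genes) and HET comparisons all 16 (18828 genes). Scripts were tested on simulated counts with planted log2 changes of 1, 2 or 3. Recovered were 33.0% of them in KO against WT at 8 weeks, 25.6% at 25 weeks and 36.0% in HET against WT at 8 weeks. For changes of 2 the shares were 31.8%, 19.4% and 36.9%. A count of 0 called therefore does not show that a gene was unchanged. DESeq2 1.42.0, no filter, library size alone, a replicate block and leaving out each library were the alternatives. CPM was computed over all 16 libraries, and a count of 0.5 was added before logs. There were 0 count columns without a sample. Replicate libraries differed by more than sampling noise, with a chi-square per degree of freedom of at least 31.0.

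Replicate numbers come from the titles. Deviations from group means correlated at 0.394 and 0.118 (8 weeks) and 0.121 and 0.179 (25 weeks) between same-numbered KO and WT libraries. Libraries of different number correlated as strongly in places, at 0.392 for WT replicate 3 and 0.272 for WT replicate 4 with KO replicate 5. Both 25-week KO deviations mirror each other. Whether same-numbered libraries are pairs was therefore not settled, and the main fits had no block. HET pairs gave -0.035 to 0.185.

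All 10 members are named. Of the 42 further genes, those called were to be named, and the others named (such as Fosl1, Arc and Klf2) were chosen after their values were seen. Genes most like the members are the 10 with the highest correlation. P-values measure the spread between these libraries, with 1 estimate per gene shared by all groups of a fit. For the members the groups were unequal, with a median SD of 1.87 in WT at 25 weeks against 0.447 and 0.308 in HET. A comparison between tighter groups is thus also judged by the spread of WT libraries outside it.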

Additional observations from a re-analysis of the deposited data

How the results depend on the processing

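Of 1830 values of single members' fold changes under the alternatives, 1683 kept their direction and their side of the threshold, 100 had another direction with no call under either setting (23 of them moved by at least the SD between libraries), 46 became calls and 1 reversed, Atf3 in HET against WT at 25 weeks, at 5.61 with library size alone and the replicate block. The 1830 include settings that leave out a library outside the comparison, which hardly move it. For KO against WT at 8 weeks the members' median stayed between 0.14 and 0.17 in those. It ran from -0.95 to 1.34 when 1 of its own libraries was left out. No main value was a call, so a kept side means no call. Numbers of members called, 0 in each of the 9 comparisons by edgeR, moved as follows, and the cause was not tested. DESeq2 called 1 in KO against WT at 25 weeks, 1 in WT at 25 against 8 weeks, 2 in HET against WT at 8 weeks and 1 in KO against HET at 25 weeks. The replicate block called 1 in KO against HET at 25 weeks (Atf3, -5.25), where 2.28% of all genes were called. With the replicate block and library size alone, 2 were called in HET against WT at 8 weeks, 1 in HET against WT at 25 weeks and 3 in KO against HET at 25 weeks. The share of all genes called in this setting is not given here, so these counts cannot be read as particular to the members. Without both libraries numbered 1 at 8 weeks, a setting added after seeing the data, there were 3 in WT between ages, 6 in HET against WT and 6 in KO against HET at 8 weeks, and 2 in KO against HET at 25 weeks. In HET against WT at 8 weeks 16.7% of all genes were called in this setting. The other shares, and those of the setting that follows, are not given here, so these counts too cannot be read as particular to the members. Without both numbered 2 at 25 weeks, also added, there were 1 in KO against WT at 25 weeks, 1 in WT between ages, 1 in HET against WT at 8 weeks and 2 in KO against HET at 8 weeks.

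Leaving out 1 library at a time gave 0 to 2 members called in KO against WT at 25 weeks, 0 to 1 in the KO effect between ages, 0 to 1 in WT between ages, 0 to 1 in HET against WT at 8 weeks, 0 to 5 in KO against HET at 8 weeks and 0 to 1 in KO against HET at 25 weeks. All calls came without WT replicate 2 at 25 weeks, which also gave 2 in KO against HET at 8 weeks, except the 5, which came without KO replicate 1 at 8 weeks. A group left with 1 library was assumed to vary like the others. Shares of all genes stand beside some of these calls above and are not given for the rest.

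Of the 42 further genes, 0 were called by edgeR in every comparison but KO against HET at 8 weeks, with 1. DESeq2 called 1 in KO against WT at 8 and 1 at 25 weeks, 2 in WT and 1 in KO between ages, 6 in HET against WT and 5 in KO against HET at 8 weeks, and 2 in KO against HET at 25 weeks. With no filter there were 1 in KO against WT at 25 weeks, 1 in KO between ages and 2 in KO against HET at 8 weeks. With the replicate block there were 5 in KO against WT at 25 weeks, where 5.49% of all genes were called. In KO against HET there were 0 at 8 and 6 at 25 weeks, where 0.00531% and 2.28% of all genes were. With library size alone in addition there were 4 and 8 in KO against WT at 8 and 25 weeks, 10 and 8 in HET against WT, and 2 and 19 in KO against HET. For that setting, for no filter and for the left-out libraries that follow, shares of all genes are not given here. These counts therefore cannot be read as particular to early-response genes. Without both libraries numbered 1 there were 1 in KO against WT at 25 weeks, 3 in WT and 2 in KO between ages, 5 in HET against WT and 9 in KO against HET at 8 weeks, and 1 at 25 weeks. Without both numbered 2 there were 1 and 1 in KO against WT at 8 and 25 weeks, 4 in WT between ages, and 6 in HET against WT and 10 in KO against HET at 8 weeks. Leaving out 1 library gave 0 to 1 and 0 to 5 in KO against WT at 8 and 25 weeks, 0 to 2 in WT and 0 to 1 in KO between ages, 0 to 3 in HET against WT at 8 weeks, and 0 to 8 and 0 to 4 in KO against HET at 8 and 25 weeks.

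The replicate block is nested within age and gave no value for comparisons between ages of 1 genotype. It left 2 residual degrees of freedom in the fit of 11 libraries and 3 in that of 16, so its calls rest on little. Of the 5 same-numbered pairs with a HET library, 1 correlated over 0.1 (WT and HET replicate 1 at 8 weeks, 0.185) and 4 did not. Pairing of HET libraries was therefore not settled either. Depth limits Egr2 most, with 5 counts in its lowest library, and Atf3 in WT replicate 2 at 25 weeks. Of the 10 genes most like the members, 1 to 9 were kept when 1 library was left out and 7 with library size alone. State A was found at 7, 6 or 9 of 10 members by annotated start, by coverage within 500 bases or by RefSeq start.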
